A study of Mus musculus with 40 samples.

Results

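Endothelial genes of the lung were followed by 10 genes that mark the cells lining blood vessels: Pecam1, Cdh5, Cldn5, Kdr, Tek, Tie1, Ednrb, Vwf, Sox17 and Car4. They were taken by name from the 37310 genes of the deposited table and all 10 passed the filter on low values that kept 15630 genes. RNA was sequenced from lungs of SWR/J and A/J mice (SWJ and AJ in the sample labels), strains that develop squamous lesions of the lung after NTCU, N-nitroso-tris-chloroethylurea, an alkylating carcinogen, is applied to the skin. It was taken either from frozen whole lung sections or by laser capture microdissection (LCM), which cuts chosen cells out of a section. Of the 40 samples collected, the 25 labelled as having passed quality control were used. They comprised 7 normal samples from mice given the acetone vehicle (total NTCU dose of 0 µmol), 5 samples with mild dysplasia (15 µmol) and 13 high-grade samples (14 to 50 µmol), the last made of 9 with moderate to severe dysplasia, 2 with severe dysplasia, 1 carcinoma in situ and 1 squamous cell carcinoma (SCC) tumor. The mice were females, about 8 weeks old when they entered, and NTCU was given for 14 to 25 weeks. LCM samples numbered 13 (8 SWR/J, 5 A/J) and whole lung samples 12 (9 SWR/J, 3 A/J), and all 5 samples with mild dysplasia came from SWR/J mice. Nothing in the labels says which samples came from the same animal, so p-values measure the spread between these samples.

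Endothelial cells form the inner wall of every vessel, and in the lung they make up the dense capillary bed around the air spaces. They hold together through adherens and tight junctions, and their growth and rest are governed by receptors for vascular endothelial growth factor (VEGF) and for angiopoietins. Lung capillaries hold a general type, which maintains the bed, and the aerocyte, a broad thin cell specialised in gas exchange. The 10 genes cover these roles. At the junctions, Pecam1 (ENSMUSG00000020717, chr11:106515531-106611942) codes for the adhesion molecule CD31, Cdh5 (ENSMUSG00000031871, chr8:106625525-106668402) for VE-cadherin, and Cldn5 (ENSMUSG00000041378, chr16:18776940-18778353) for the tight junction protein claudin-5. Among receptors, Kdr (ENSMUSG00000062960, chr5:76328852-76374483) is the main signalling receptor for VEGF, Tek (ENSMUSG00000006386, chr4:94405980-94541667) the angiopoietin receptor, Tie1 (ENSMUSG00000033191, chr4:118143796-118162666) its orphan relative, and Ednrb (ENSMUSG00000022122, chr14:104213842-104243390) the type B endothelin receptor. Vwf (ENSMUSG00000001930, chr6:125496792-125636697) is the clotting protein von Willebrand factor, more abundant in larger vessels than in capillaries, Sox17 (ENSMUSG00000025902, chr1:4481009-4486494) a transcription factor of arterial endothelium, and Car4 (ENSMUSG00000000805, chr11:84771288-84779546) a membrane carbonic anhydrase that marks aerocytes. Positions are those of whole protein-coding genes in mm9 (NCBIM37), the assembly of the deposited counts.

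Because the 10 genes moved together across samples, the bases upstream of their start sites are shown for 3 of them, the VEGF receptor, the angiopoietin receptor and the tight junction gene. The RefSeq promoter table for mouse (GRCm38.p6) matched 6 of the 10 genes (Tek, Tie1, Kdr, Car4, Ednrb and Cldn5), and Pecam1, Cdh5, Vwf and Sox17 were not matched. Each sequence covers the 250 bases before the start, written 5′ to 3′ on the strand of the gene, with GGAA or its reverse complement TTCC, the core of sites for ETS factors, in capitals. They lie at chr5:75978456-75978705 (minus strand) for Kdr, chr4:94739039-94739288 (plus strand) for Tek and chr16:18776597-18776846 (plus strand) for Cldn5.
Kdr: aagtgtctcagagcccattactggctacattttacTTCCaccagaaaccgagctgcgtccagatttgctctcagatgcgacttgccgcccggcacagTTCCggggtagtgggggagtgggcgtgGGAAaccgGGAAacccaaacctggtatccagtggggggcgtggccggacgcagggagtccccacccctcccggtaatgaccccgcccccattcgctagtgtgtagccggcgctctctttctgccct
Tek: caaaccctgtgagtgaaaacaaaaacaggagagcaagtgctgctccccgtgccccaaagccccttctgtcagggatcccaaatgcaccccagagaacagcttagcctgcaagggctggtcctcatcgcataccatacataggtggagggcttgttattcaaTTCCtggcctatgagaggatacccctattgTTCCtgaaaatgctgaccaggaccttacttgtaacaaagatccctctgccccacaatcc
Cldn5: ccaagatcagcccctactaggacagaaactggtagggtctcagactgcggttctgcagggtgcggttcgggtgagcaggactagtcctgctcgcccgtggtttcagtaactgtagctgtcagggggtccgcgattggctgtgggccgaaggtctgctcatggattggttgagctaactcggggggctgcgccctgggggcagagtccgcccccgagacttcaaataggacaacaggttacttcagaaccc
The motif GGAA was present on either strand 4 times upstream of Kdr, 2 times upstream of Tek and 0 times upstream of Cldn5, and it was present in 5 of the 6 matched genes. Among all 32851 promoters of the table the share with the motif in the same window was 93.4%, so its presence does not set these genes apart. The motif AACAAT, a core for SOX factors, was present in 1 of the 6 genes (Tek), beside 9.42% of all promoters. In Tek the SOX match, on the other strand, shares 2 bases with an ETS core match. A match describes the letters of the window only.

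The expected counts, in which RSEM shares out among genes the reads that align to more than 1 of them, summed to between 2667387 and 16534728 per sample. Per gene they reached from 8 (Sox17 and Car4 in LCM sample 42) to 6439.7 (Pecam1 in whole lung sample 73). Levels are log2 CPM, read counts scaled to a common library total, after TMM normalization. Median transcript integrity number (TIN), a measure of RNA quality, was between 21.7 and 75.1. Several libraries stood apart. LCM sample 46 (A/J, normal) was the highest LCM sample for 10 of the 10 genes and lay above the whole lung median for all 10, and its airway genes summed to 201088 CPM, of which 183690 CPM was the club cell gene Scgb1a1. Whole lung sample 70 (SWR/J, normal) was the lowest whole lung sample for 8 of the 10 genes and was rich in thymocyte genes (Rag1, which rearranges antigen receptors, at 1021 CPM), while its alveolar type 2 genes summed to 143 CPM. Whole lung sample 79 (SWR/J, severe dysplasia) was among the lowest 3 for all 10 genes, and whole lung sample 72 (SWR/J, normal) for 5 of them, with alveolar type 2 sums of 832 and 1281 CPM beside a whole lung median of 10058 CPM. Thymocyte genes summed to 1014 to 2220 CPM in 4 further samples (2B, 40, 75 and 81), and the liver gene Alb was at 8125 CPM in whole lung sample 78. The skeletal muscle gene Ckm was at 2573 CPM in LCM sample 45, 2199 CPM in whole lung sample 78 and 2141 CPM in whole lung sample 79. These are high-grade samples, and the next highest value was 732 CPM in LCM sample 42, also high-grade. In 2 of the 25 samples (7c and SM1) the grade and the described histology differed. Some results are also given without some of these libraries.

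**Figure D1:**
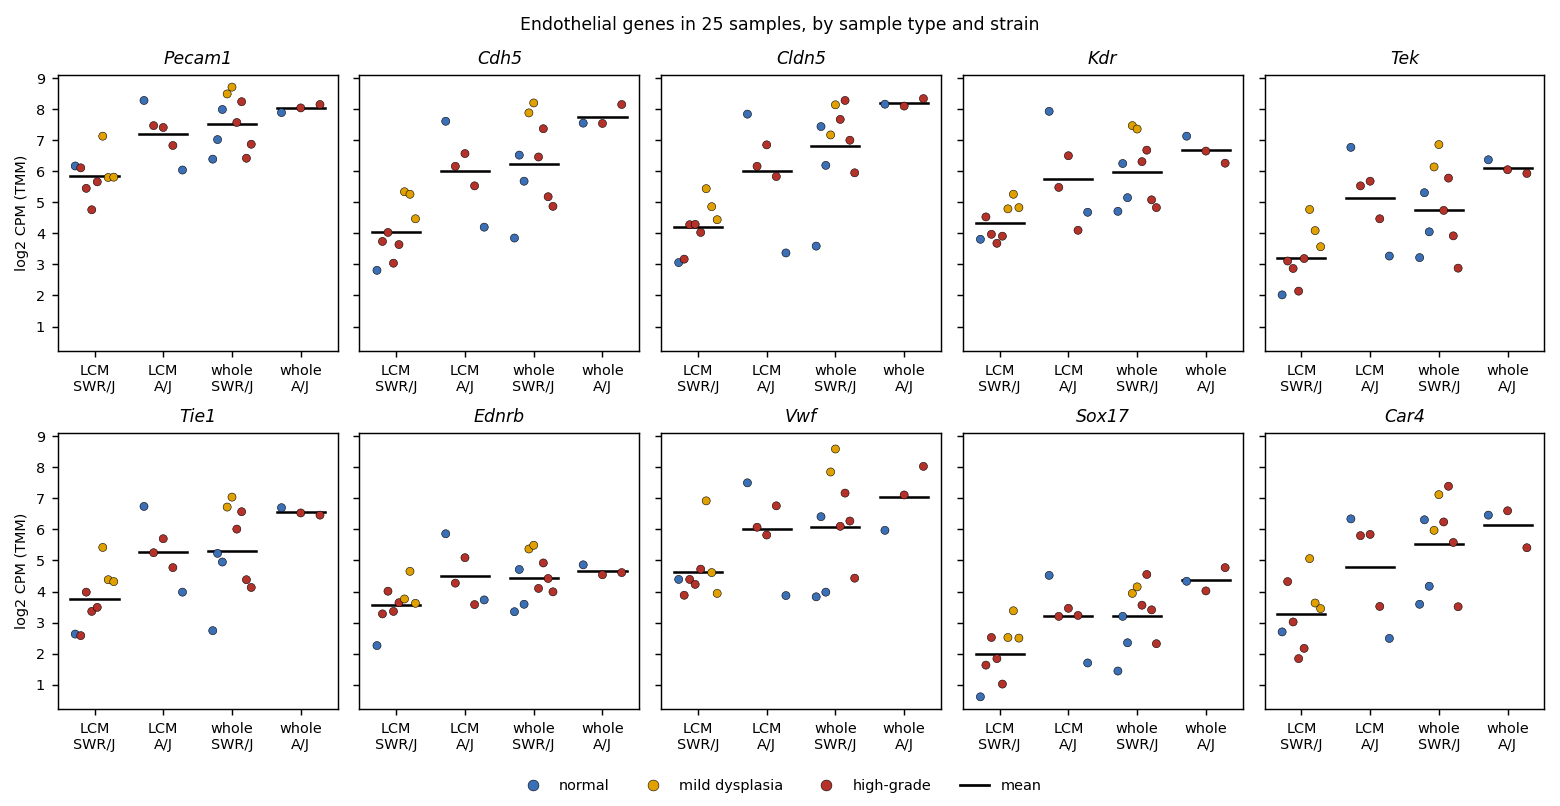
Log2 CPM of the 10 endothelial genes (1 panel per gene, shared y axis) in LCM and whole lung samples of SWR/J and A/J mice; points are samples, colours the grades and black lines group means. LCM samples of SWR/J mice are the lowest group for every gene, and the normal LCM sample of A/J mice with the highest values is sample 46.

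Per transcript length, the order of the genes was nearly the same in the 2 sample types. On the scale of log2 CPM per kilobase of the longest transcript, whole lung had Cldn5 highest (mean 6.66, SD 1.39, n = 12), followed by Pecam1 (5.86, SD 0.79), Car4 (5.36, SD 1.31), Cdh5 (4.60, SD 1.43), Kdr (3.59, SD 0.99), Tie1 (3.58, SD 1.35), Vwf (3.16, SD 1.58), Tek (2.87, SD 1.33), Ednrb (2.48, SD 0.66) and Sox17 (1.82, SD 1.05). Of the neighbours in that order, only Cdh5 over Kdr (mean difference 1.02, SD 0.65, higher in 11 of 12 samples) and Ednrb over Sox17 (0.66, SD 0.65, 11 of 12) were separated by more than 1 SD of the difference within samples. In LCM the order began with Pecam1 (4.59, SD 0.98, n = 13), Cldn5 (4.38, SD 1.47) and Car4 (3.50, SD 1.52) and ended with Tek (1.71, SD 1.45) and Sox17 (0.75, SD 1.15). There only Tek over Sox17 (0.96, SD 0.75, 11 of 13) was separated by more than 1 SD. By their means, the junction genes and Car4 were thus the 4 highest in both sample types, and the transcription factor was the lowest. In LCM the step from Cdh5 to Kdr was within 1 SD (0.49, SD 0.67, 10 of 13), so the set of 4 is less distinct there.

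**Figure D2:**
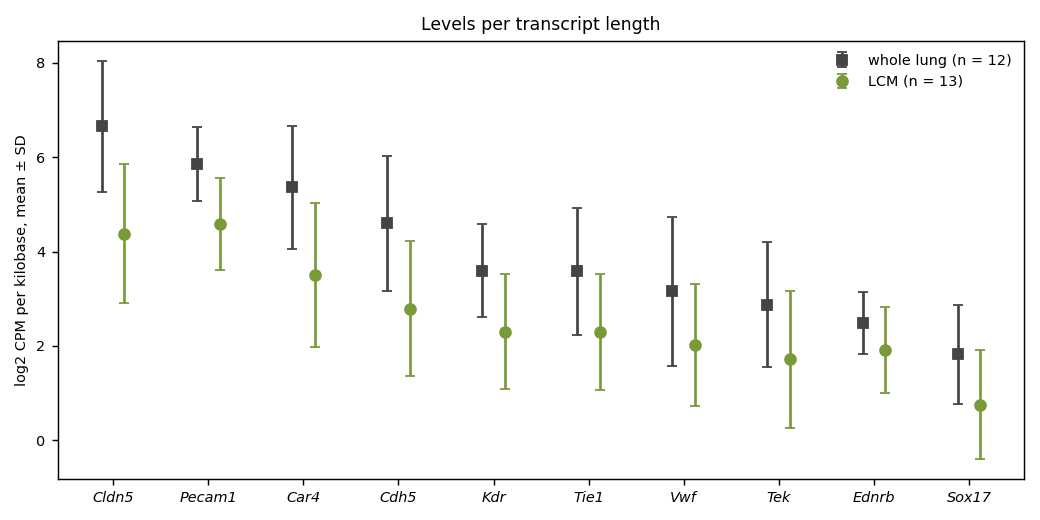
Mean log2 CPM per kilobase of the longest transcript for the 10 genes in whole lung (squares, n = 12) and LCM (circles, n = 13); bars are SDs between samples. Every gene has a lower mean in LCM, and the bars of neighbouring genes overlap.

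Endothelial genes were lower in LCM tissue than in whole lung. In edgeR's quasi-likelihood test, with grade, strain and median TIN as covariates and Benjamini-Hochberg adjustment over 15630 genes, 9 of the 10 genes were called lower at an adjusted p under 0.05 and 0 higher, where 14.6% of all genes tested were called, 8.93% lower and 5.65% higher. All 10 had log2 fold changes below 0, while 47.7% of all genes were above 0. The median log2 fold change of the 10 genes was -1.55, against -0.026 over all genes. In such bulk samples, fewer endothelial cells and less RNA of these genes per cell cannot be told apart.

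All 3 junction genes fell, and Cldn5 and Cdh5 had the largest differences of the 10 genes. Cldn5 in LCM samples had a lowest value of 3.06, a median of 4.44 and a highest value of 7.84 log2 CPM, and in whole lung 3.59, 7.55 and 8.34. Its fitted level was 6.48-fold lower in LCM (log2 fold change -2.70, SE 0.48, adjusted p = 0.00205, n = 25). In A/J mice, with LCM values of 3.37, 5.83, 6.16, 6.85 and 7.84 and whole lung values of 8.10, 8.16 and 8.34, the groups did not overlap, and Cldn5 was the 1 of the 10 genes for which that was so, where 8.57% of all genes did not overlap. Cdh5 ranged from 2.81 over a median of 4.47 to 7.61 in LCM and from 3.85 over 6.95 to 8.20 in whole lung, and was 4.86-fold lower (-2.28, SE 0.39, adjusted p = 0.00161). Pecam1 ranged from 4.76 over 6.11 to 8.28 in LCM and from 6.39 over 7.94 to 8.71 in whole lung, and was 2.67-fold lower (-1.41, SE 0.26, adjusted p = 0.00259). The ranges overlapped for each of these genes, and over all 25 samples LCM and whole lung overlapped for all 10 genes, as they did for all but 0.0064% of the genes tested. In SWR/J mice they also overlapped for all 10 (0.205% of all genes did not).

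Receptors had lower values in LCM as well, and all but Ednrb were called lower. For Kdr, LCM samples had 3.68, 4.68 and 7.93 log2 CPM as lowest, median and highest value and whole lung samples 4.71, 6.29 and 7.47, and the fitted difference was -1.45 (SE 0.38, adjusted p = 0.0154). Tek ranged from 2.02 over 3.57 to 6.77 in LCM and from 2.88 over 5.55 to 6.86 in whole lung (-1.55, SE 0.40, adjusted p = 0.0137), and Tie1 from 2.58 over 4.32 to 6.74 and from 2.74 over 6.24 to 7.04 (-1.68, SE 0.38, adjusted p = 0.00735). For both the highest LCM sample was sample 46 and the whole lung range reached below the LCM median. Ednrb had the smallest difference, -0.67 (SE 0.29, adjusted p = 0.127), with a range from 2.26 over 3.73 to 5.86 in LCM and from 3.35 over 4.58 to 5.49 in whole lung. Without LCM sample 46 it was -0.94 (adjusted p = 0.0102), and the count of genes called lower became 10 of 10, beside 9.61% of all genes.

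Of the remaining 3 genes, Car4 was 4.46-fold lower (-2.16, SE 0.56, adjusted p = 0.0141), ranging from 1.84 over 3.52 to 6.34 in LCM and from 3.51 over 6.10 to 7.39 in whole lung. Vwf was 2.91-fold lower (-1.54, SE 0.46, adjusted p = 0.0295), from 3.87 over 4.61 to 7.50 in LCM and from 3.83 over 6.34 to 8.59 in whole lung. Sox17 was 2.55-fold lower (-1.35, SE 0.35, adjusted p = 0.0136), from 0.61 over 2.52 to 4.52 and from 1.44 over 3.75 to 4.77. The call for Vwf was the least stable of the 9: it was lost when any 1 of 6 samples was left out (adjusted p from 0.0503 to 0.0638) and without the 2 samples of conflicting histology (0.0549).

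Genes of the alveoli moved with this difference. Among alveolar type 2 genes 3 of 6 were called lower and 0 higher in LCM (median -2.73), led by Lamp3 (-3.48, SE 1.07, adjusted p = 0.0337) and the surfactant gene Sftpc (-3.44, SE 1.08, adjusted p = 0.0375). They summed to between 154 and 10009 CPM in LCM (median 1159) and between 143 and 31896 CPM in whole lung (median 10058). Among alveolar type 1 genes 3 of 5 were called lower (median -1.36), with Ager at -2.78 (SE 0.76, adjusted p = 0.0192), while their summed level had a like median (1138 CPM in LCM, 1118 CPM in whole lung). Red blood cell genes fell in 4 of 4 (median -2.66, Hba-a1 -2.99, SE 0.54, adjusted p = 0.00215). With the alveolar lists as a covariate, an alternative chosen after the data were seen, all 10 endothelial genes still had lower values in LCM, with a median of -0.79, and 4 of 10 were called (Pecam1, Cdh5, Tie1 and Cldn5), beside 9.67% of all genes. Airway epithelial genes went the other way, with 2 of 8 called higher and 0 lower (median 1.31): Cyp2f2, a club cell enzyme (1.84, SE 0.43, adjusted p = 0.00873), and Epcam (1.23, SE 0.31, adjusted p = 0.0122).

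**Figure D3:**
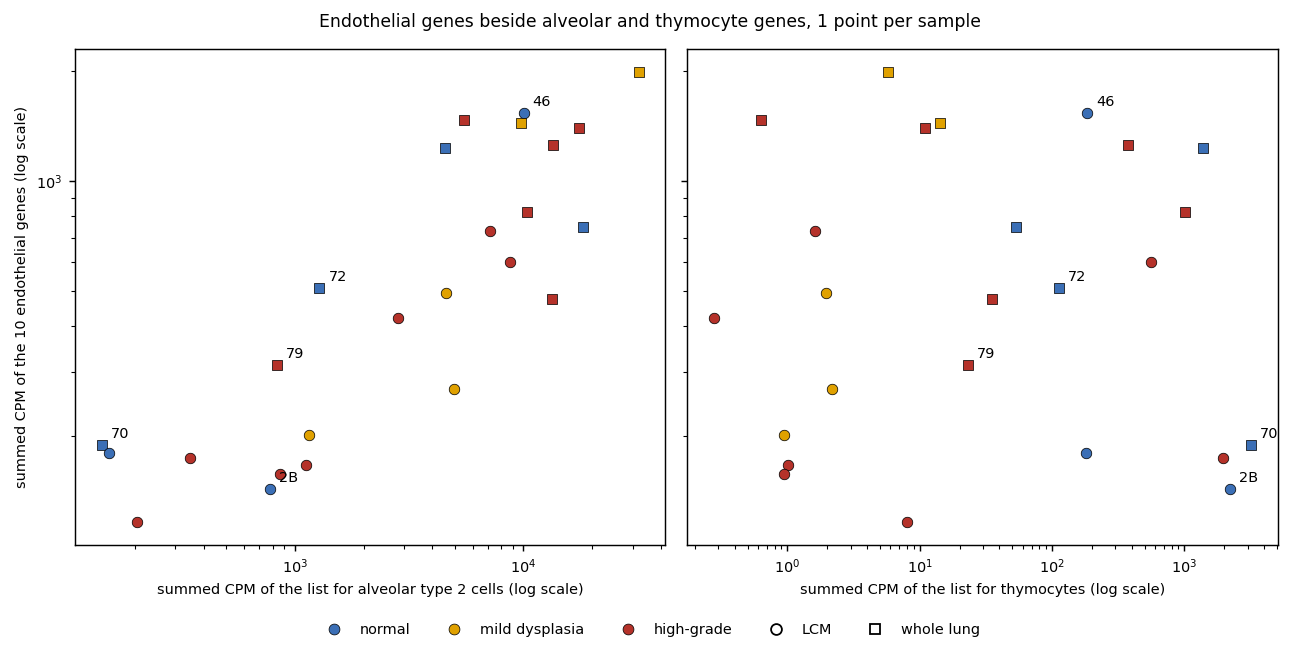
Summed CPM of the 10 endothelial genes (y axis, log scale) against the summed CPM of the alveolar type 2 list (left) and the thymocyte list (right, log scales); circles are LCM and squares whole lung samples, coloured by grade. Whole lung samples 70, 72 and 79 lie low on both axes of the left panel, and LCM sample 46 lies among the whole lung samples.

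The other endothelial genes showed the same direction. Among 20 further pan-endothelial genes 15 were called lower in LCM and 0 higher (median -1.33), led by Tmem100 (-2.40, SE 0.67, adjusted p = 0.0202), the receptor gene Calcrl (-2.32, SE 0.54, adjusted p = 0.00901) and Clec14a (-2.00, SE 0.51, adjusted p = 0.0130). In the VEGF and angiopoietin pathway 6 of 14 were called lower and 0 higher (median -0.81). They included Flt1, the VEGF receptor that acts largely as a decoy (-1.84, SE 0.30, adjusted p = 0.00138), the phosphatase gene Ptprb (-1.84, SE 0.39, adjusted p = 0.00563) and the ligand Vegfa (-1.18, SE 0.35, adjusted p = 0.0293), which alveolar epithelium also makes. In the endothelin pathway 0 of the 5 genes tested were called (1 at an unadjusted p under 0.05, beside 30.3% of all genes), and the smallest p was that of Edn3, an Ednrb ligand (-1.80, SE 0.70, adjusted p = 0.0862). Of 7 endothelial Notch genes 3 were called lower and 1 higher: Notch4 (-1.70, SE 0.36, adjusted p = 0.00513) and the ligand Dll4 (-1.48, SE 0.32, adjusted p = 0.00576) are largely endothelial, while Hes1 (0.85, SE 0.28, adjusted p = 0.0434) is a Notch target in many cell types.

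By vessel type, 4 of 6 general capillary genes were called lower (median -1.30; Plvap -1.46, SE 0.33, adjusted p = 0.00743; Sema3c -1.43; Gpihbp1 -1.35), and 3 of 6 aerocyte genes (median -1.39; Prx -2.76, SE 0.55, adjusted p = 0.00363; Apln -1.83; Tbx2 -1.77), with 0 higher in either. All 5 arterial genes were called, 4 lower and 1 higher, with Gja5 at -2.07 (SE 0.56, adjusted p = 0.0172), Efnb2 at -1.38 and Bmx, a kinase gene also found in epithelial and myeloid cells, at 1.25 (SE 0.34, adjusted p = 0.0186). Of the venous genes 1 of 5 was called lower (Ephb4, -0.98, SE 0.22, adjusted p = 0.00806), and the median of the list was 0.06. Of the lymphatic genes 2 of the 5 tested were called lower, Lyve1 (-1.87, SE 0.43, adjusted p = 0.00790) and Flt4 (-1.03). Lower calls also arose in 2 of 8 genes of smooth muscle cells and pericytes (Notch3 -1.01, Pdgfrb -0.91), 1 of 5 of fibroblasts (Pdgfra -0.78), 1 of 5 of leukocytes (Cd79a -2.34) and 2 of 4 of platelets (Gp1ba -1.43, Itga2b -1.40). The medians of the smooth muscle, fibroblast, leukocyte and platelet lists were 0.15, -0.00, -0.69 and -0.94. None of 4 thymocyte genes tested and none of 5 skeletal muscle genes were called (0 of each at an unadjusted p under 0.05).

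**Figure D4:**
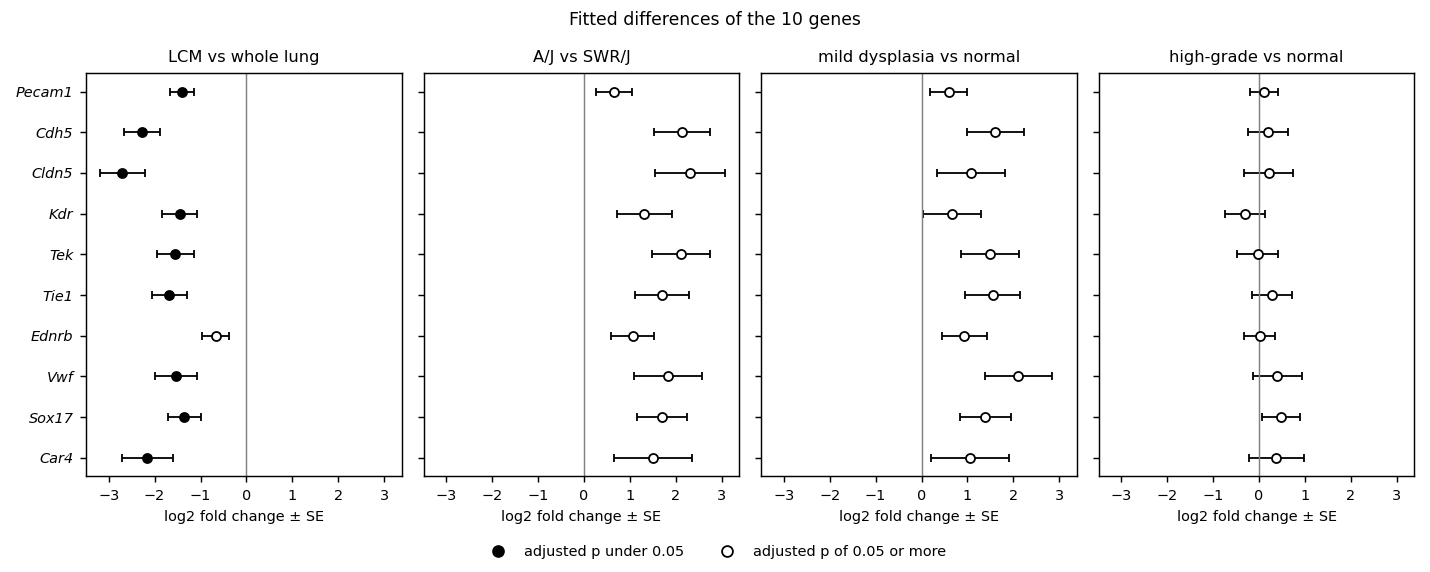
Fitted log2 fold changes (points) with standard errors (bars) of the 10 genes in 4 comparisons from 1 fit of 25 samples; filled points have an adjusted p under 0.05. For LCM against whole lung 9 of 10 points are filled and all lie below 0, and in the other 3 comparisons 0 are filled.

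Between strains, all 10 genes had higher values in A/J than in SWR/J samples, as 51.3% of all genes did, and none passed the test in the edgeR fit. Log2 fold changes ran from 0.66 (Pecam1, SE 0.39, adjusted p = 0.383) to 2.31 (Cldn5, SE 0.76, adjusted p = 0.132), with a median of 1.70 against 0.017 over all genes. The count called was 0 of 10, beside 0.992% of all genes, and 8 of 10 had an unadjusted p under 0.05, beside 17.5% of all genes. The lowest adjusted p was that of Cdh5 (2.14, SE 0.61, adjusted p = 0.0977). Its LCM values were 4.20, 5.53, 6.16, 6.57 and 7.61 log2 CPM in the 5 A/J samples, and 2.81, 3.88 and 5.34 as lowest, median and highest in the 8 SWR/J samples. In whole lung they were 7.54, 7.55 and 8.15 in A/J, and 3.85, 6.46 and 8.20 in SWR/J. The A/J samples thus lay towards the top in either sample type, yet inside the range of SWR/J in whole lung and overlapping it in LCM.

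The receptors followed the same pattern, with Tek at 2.12 (SE 0.63, adjusted p = 0.105), Tie1 at 1.70 (SE 0.59, adjusted p = 0.150), Kdr at 1.31 (SE 0.60, adjusted p = 0.266) and Ednrb at 1.06 (SE 0.47, adjusted p = 0.249). Vwf was at 1.83 (SE 0.73, adjusted p = 0.210), Sox17 at 1.70 (SE 0.54, adjusted p = 0.122) and Car4 at 1.50 (SE 0.85, adjusted p = 0.358). DESeq2 called 5 of the 10 (Cdh5, Tek, Tie1, Cldn5 and Sox17), beside 6.15% of all genes, and the edgeR fit without median TIN called 9, beside 16.0% of all genes. Strain and RNA quality were linked, since median TIN was between 53.7 and 69.6 in A/J and between 21.7 and 75.1 in SWR/J samples (medians of 61.1 and 45.1). Alveolar type 2 genes were also higher in A/J (median 2.74, all 6 above 0, 0 called). With the alveolar lists as a covariate the median of the 10 genes was 0.78, and the part of these cells in the result was not tested further. Without whole lung samples 70, 72 and 79 the median was 1.32 with 0 called. In that fit 5 of 10 had an unadjusted p under 0.05, beside 9.74% of all genes. Within sample types the median was 1.15 in whole lung and 2.47 in LCM, with 0 called in each. Of the other endothelial lists, 1 of 5 arterial genes (Bmx, 2.20, SE 0.53, adjusted p = 0.0456) and 1 of 5 lymphatic genes (Pdpn, 2.23, SE 0.38, adjusted p = 0.00198, which alveolar type 1 cells also express) were called higher (0.333% of all genes were), and the remaining endothelial lists had 0 called, pan-endothelial genes included (0 of 20, with 18 above 0 and 11 at an unadjusted p under 0.05).

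Across grades, endothelial genes had higher values in mild dysplasia than in normal samples, again without passing the test. All 10 log2 fold changes were above 0, as were 48.9% of those of all genes, from 0.59 (Pecam1, SE 0.40) to 2.11 (Vwf, SE 0.73, adjusted p = 0.0578), with a median of 1.23 against -0.021 over all genes. The count called was 0 of 10, beside 12.4% of all genes, and 5 of 10 had an unadjusted p under 0.05, beside 32.7% of all genes. In SWR/J whole lung, Vwf was 7.85 and 8.59 log2 CPM in the 2 samples with mild dysplasia and 3.83, 3.98 and 6.41 in the 3 normal samples. In SWR/J LCM it was 3.94, 4.61 and 6.92 in mild dysplasia and 4.39 in the normal sample. For Vwf the whole lung samples were therefore apart, and the LCM samples were not.

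Most of the genes were higher in mild dysplasia in either sample type of SWR/J mice. In LCM all 3 mild samples lay above the 1 normal sample for 8 of 10 genes (not Pecam1 and Vwf), as they did for 36.4% of all genes. That normal sample, 2B, was the lowest LCM sample for 5 of the 10 genes and among the lowest 3 for 7. Its Rag1 was at 701 CPM. Against all 3 normal LCM samples, 2 of them A/J, the differences in mean log2 CPM had a median of 0.14. They were above 0 for 7 genes and below 0 for 3. In whole lung both mild samples lay above the 3 normal ones for 8 of 10 genes (not Cldn5 and Car4), as they did for 17.8% of all genes. The fits within a sample type, with strain as a covariate, had all 10 genes above 0 in each, with a median of 1.71 in whole lung and 1.13 in LCM and 0 called in either (2 and 0 of 10 at an unadjusted p under 0.05, beside 22.6% and 12.1% of all genes). Cdh5 was 4.47, 5.26 and 5.34 log2 CPM in mild dysplasia against 2.81 in SWR/J LCM. It was 7.88 and 8.20 in mild dysplasia against 3.85, 5.68 and 6.52 in SWR/J whole lung, and its fitted difference was 1.61 (SE 0.62, adjusted p = 0.0807). Tie1 (1.55, SE 0.60, adjusted p = 0.0844), Tek (1.49, SE 0.64, adjusted p = 0.112) and Sox17 (1.39, SE 0.56, adjusted p = 0.0935) were close to it. Cldn5 (1.07, SE 0.74), Car4 (1.06, SE 0.85), Ednrb (0.93, SE 0.49) and Kdr (0.67, SE 0.63) had adjusted p-values between 0.187 and 0.469.

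This comparison rested on few libraries. Without LCM sample 46, 8 of the 10 genes were called higher in mild dysplasia (all but Pecam1 and Car4), with a median of 1.96, and 10.2% of all genes were called higher. Without whole lung sample 76 (moderate to severe dysplasia) 4 were called, beside 8.06% of all genes called higher, and without whole lung sample 71 (normal) 2, beside 8.75%. Without whole lung samples 70, 72 and 79, of which 2 are normal, 0 of the 10 and 0 of all genes were called and the median was 0.72. Thymocyte genes moved with the comparison (4 of 4 called lower in mild dysplasia). They summed to between 53.8 and 3176 CPM in the 7 normal samples and between 0.943 and 14.2 CPM in the 5 mild ones. With that list as a covariate in edgeR's fit, the median of the 10 genes was 1.08 and their lowest adjusted p was 0.394. In that fit 0 of 10 had an unadjusted p under 0.05, beside 17% of all genes, and 1.37% of all genes were called. Alveolar type 2 genes also had higher values in mild dysplasia (median 2.29, 0 of 6 called), and with the alveolar lists as a covariate the median of the endothelial genes was 0.18. DESeq2 called 4 of the 10 (Cdh5, Vwf, Tie1 and Sox17), edgeR without median TIN 2, and edgeR on SWR/J samples alone 7, where 10.7%, 5.56% and 5.25% of all genes were called higher.

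Some genes of the other vascular lists passed the test in mild dysplasia, all with higher values. They were Cd34 (1.21, SE 0.34, adjusted p = 0.0302; 1 of 20 pan-endothelial genes), Nrp2, a co-receptor for VEGF-C (1.15, SE 0.29, adjusted p = 0.0222; 1 of 14 in the VEGF and angiopoietin pathway), Ece1, which activates endothelins (1.29, SE 0.37, adjusted p = 0.0308; 1 of 5), Sema3c (2.05, SE 0.67, adjusted p = 0.0472; 1 of 6 general capillary genes), Kitl (1.57, SE 0.37, adjusted p = 0.0198; 1 of 6 aerocyte genes) and Bmx (2.47, SE 0.52, adjusted p = 0.0130; 1 of 5 arterial genes). Of the venous genes 2 of 5 were called, Selp (2.42, SE 0.75, adjusted p = 0.0407) and Nr2f2 (1.38, SE 0.38, adjusted p = 0.0284), and of the lymphatic genes 2 of 5, Lyve1 (1.99, SE 0.63, adjusted p = 0.0452) and Pdpn (1.57, SE 0.39, adjusted p = 0.0215). Over all genes, 5.21% were called higher in mild dysplasia. None of 7 Notch genes was called (4 at an unadjusted p under 0.05). The calls in these lists depended on the fit. With the alveolar lists as a covariate 0 of all genes were called, and likewise without whole lung samples 70, 72 and 79. The fits of whole lung alone and of LCM alone also called 0 of all genes, and the fit of all 40 collected samples called 0.00655%.

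Between high-grade and normal samples none of the endothelial genes passed the test. The log2 fold changes ran from -0.31 (Kdr, SE 0.44) to 0.47 (Sox17, SE 0.41), with a median of 0.20 and standard errors between 0.31 and 0.60. None was called by edgeR or by DESeq2 and none had an unadjusted p under 0.05 in either, where edgeR called 0.0192% of all genes and gave 9.14% an unadjusted p under 0.05. Kdr was between 3.68 and 6.68 log2 CPM in the 13 high-grade samples (median 5.08) and between 3.81 and 7.93 in the 7 normal ones (median 5.15), and Sox17 between 1.02 and 4.77 (median 3.23) and between 0.61 and 4.52 (median 2.35). The groups covered nearly the same range. The median of the 10 genes was 0.59 in whole lung alone and -0.31 in LCM alone, with 0 called in each. Without LCM sample 46 all 10 genes were above 0, with a median of 0.85, and 5 of 10 had an unadjusted p under 0.05 (10.7% of all genes did), again with 0 called. Without whole lung sample 71 all 10 were also above 0 (median 0.51). Other changes went the other way. The median was -0.03 without whole lung sample 76 and -0.05 without whole lung samples 70, 72 and 79, with 4 of 10 above 0 in each. With the alveolar lists as a covariate it was -0.10, with 2 of 10 above 0. Without the 2 samples of conflicting histology it was 0.05, with 6 of 10 above 0. Within the high-grade group, the SCC tumor (LCM, A/J) had 4.10 for Kdr, the lowest of the 5 A/J LCM samples, and 6.76 for Vwf, higher than all of them but sample 46. The carcinoma in situ (whole lung, A/J) had 8.03 for Vwf and 5.41 for Car4, the highest and the lowest of the 3 A/J whole lung samples. Single samples of these grades carry no replicate.

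By rank of grade, from 0 for normal to 4 for carcinoma, the 10 genes changed by -0.30 (Kdr, SE 0.17, unadjusted p = 0.103, adjusted p = 0.458) to 0.10 (Vwf, SE 0.23) log2 units per step in edgeR's fit. None of 10 was called and none had an unadjusted p under 0.05, beside 0.262% of all genes called (13.7% at an unadjusted p under 0.05), and DESeq2 called 0. Whether the high-grade difference itself differed between LCM and whole lung, or between strains, was tested by interaction terms. By sample type the estimates ran from -0.75 (Sox17, SE 0.66) to 0.08 (Tek, SE 0.77), and by strain from -1.56 (Kdr, SE 0.82, adjusted p = 0.970) to -0.19 (Pecam1, SE 0.61). None was called in either (0 of 10 at an unadjusted p under 0.05), where 0.0% of all genes were called (7.15% and 4.33% at an unadjusted p under 0.05). DESeq2 called 0 in either, with 0 and 3 of 10 at an unadjusted p under 0.05. Without LCM sample 46 the medians turned from -0.46 to 0.65 and from -1.13 to 0.54. Without whole lung sample 71 the median by strain was -1.94, and 7 of 10 had an unadjusted p under 0.05, beside 7.6% of all genes, with 0 called. Without the 2 samples of conflicting histology the median by strain was -1.52 with 0 called. There 4 of 10 had an unadjusted p under 0.05, beside 4.13% of all genes.

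For median TIN, Pecam1 had the largest slope, 0.32 log2 units per 10 units of TIN (SE 0.13, unadjusted p = 0.0187, adjusted p = 0.114 in edgeR's fit), and the other 9 lay between -0.08 and 0.21. The count called was 0 of 10, beside 7.31% of all genes. In the fit of all 40 collected samples, where more libraries of low quality entered, 5 of the 10 were called (16.5% of all genes were), all with higher values at higher TIN (Pecam1, Cdh5, Kdr, Tek and Tie1).

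**Figure D5:**
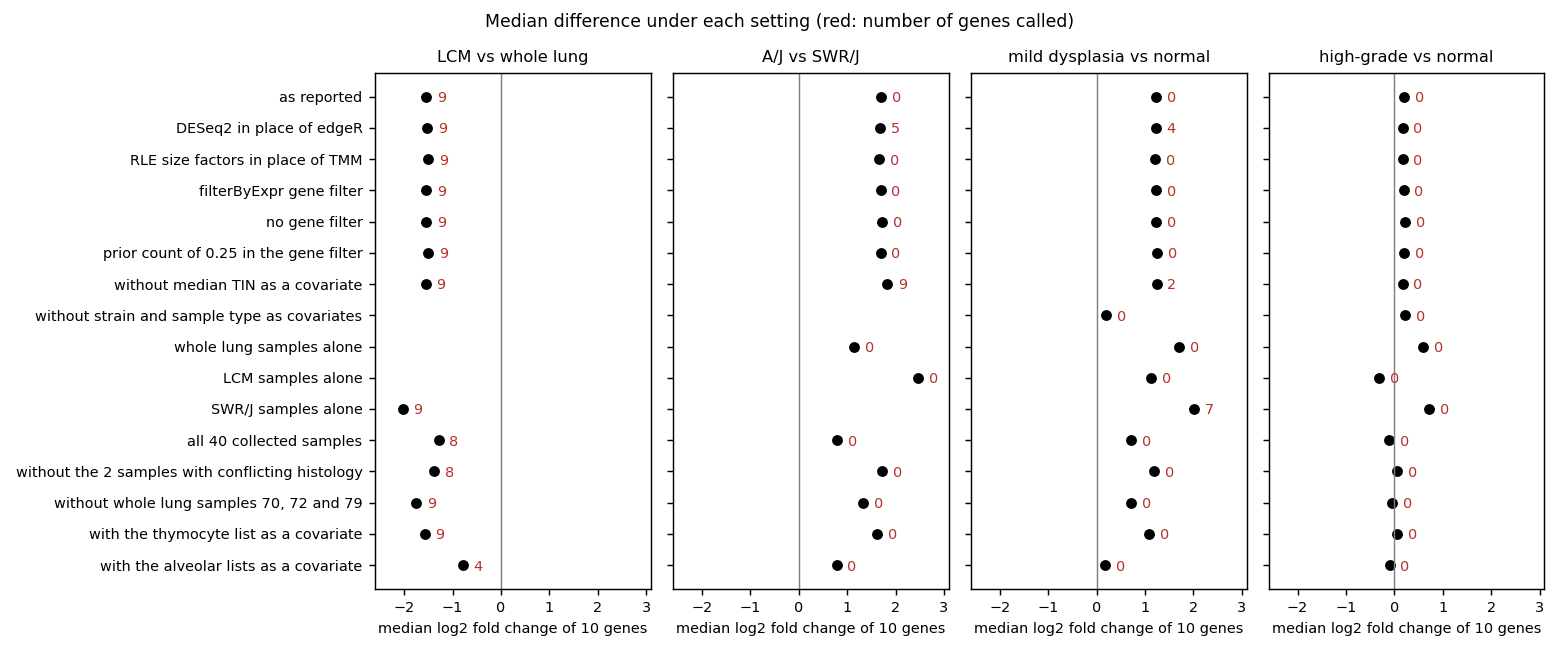
Median log2 fold change of the 10 genes (x axis) in 4 comparisons under each setting (rows); red figures give the number of genes called. For LCM against whole lung every median lies below 0 and between 4 and 9 genes are called (single left-out samples are not drawn), while for high-grade against normal the medians lie on either side of 0 with 0 called.

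Across the samples the 10 genes varied together. As a description over 25 samples that share sample type, strain and library effects, Pearson's r between 2 genes was between 0.676 (Pecam1 and Ednrb) and 0.965 (Cdh5 and Tie1) over the 45 pairs, with a median of 0.863. Within whole lung samples (n = 12) the median was 0.841 and within LCM samples (n = 13) 0.844. After adjustment for median TIN, strain and sample type it was 0.808, with the lowest value again for Pecam1 and Ednrb (0.571) and the highest for Cdh5 and Tek (0.953). Cdh5 followed the mean of the 10 genes most closely (r = 0.982), and Vwf (0.838) and Pecam1 (0.844) least. Each of the 10 genes is itself part of that mean, which raises its r, so these values cannot be set against those of other genes. The other genes of the table whose adjusted values were most like that mean, over 14203 genes with a mean log2 CPM of at least 1, were Gpr116 (r = 0.964), Ptprb (0.962), Rasgef1a (0.961), Gucy1b3 (0.953), Cyyr1 (0.950), Sema3g (0.947), Prx (0.946) and Afap1l1 (0.941). Without adjustment Gpr116 and Ptprb again came first, at 0.979 and 0.977, and 5 of the 8 genes were among the first 8 in both rankings.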

How the data were processed

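Per the labels and the study's methods, TruSeq libraries were read as single-end 50-base reads, trimmed with Trimmomatic and aligned to mm9 with STAR. The values deposited by the authors are unnormalized expected counts of RSEM. Gene symbols and positions came from an annotation of the same assembly. For edgeR 4.0.16 and DESeq2 1.42.0 (R 4.3.3) the expected counts were rounded. Log2 CPM used TMM and a prior count of 2, and genes with an interquartile range above 0 and a sum above 1 were tested (15630) in 1 robust quasi-likelihood fit of the 25 passed samples with grade, sample type, strain and median TIN as covariates. Called means a Benjamini-Hochberg adjusted p under 0.05. SEs are the log2 fold change over the root of F. The fits were also run on simulated counts to which only the tested effect was added. Those counts held no other effect of grade, sample type, strain or RNA quality, so the run does not bear on such effects here. Members and lists were chosen with earlier results of these data known; the thymocyte and muscle lists were added after the data were seen. Named are all 10 members and, per list and comparison, up to 3 called genes with the largest change or else the gene with the smallest p. Genes alike were ranked by Pearson's r with the members' mean z-score. Errors are SDs or SEs between samples and include counting error. The 15 samples that did not pass entered 1 alternative only.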

Additional observations from a re-analysis of the deposited data

Results flagged for a closer look

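Each of the 10 genes was examined for single samples far from the rest of their group, in 30 sets of 4 to 10 samples of 1 grade, and 0 groups held such a sample by Dixon's criterion. Grades with fewer than 4 samples, such as carcinoma in situ, could not be examined. The result does not bear on LCM sample 46 and whole lung sample 70, which stood apart by their ranks within a sample type.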

How the results depend on the processing

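For LCM against whole lung the 10 genes stayed below 0 under all alternatives, with 8 to 10 called as 1 sample at a time was left out and 8 or 9 under the other alternatives, except that 4 were called with the alveolar lists as a covariate. For A/J against SWR/J, where 0 were called, DESeq2 called 5 and the fit without median TIN 9, beside 6.15% and 16% of all genes. Leaving out 1 sample called between 0 and 3, the highest without whole lung sample 76, where 2.57% of all genes were called. For mild dysplasia against normal, also 0, DESeq2 called 4, the fit without median TIN 2 and SWR/J samples alone 7. In these fits 10.7%, 5.56% and 5.25% of all genes were called higher. Leaving out 1 sample called between 0 and 8, the highest without LCM sample 46, where 10.2% of all genes were called higher. Without strain and sample type as covariates the median of that comparison was 0.20. For median TIN, all 40 samples gave 5 called and the alveolar lists as a covariate 1, beside 16.5% and 5.98% of all genes. Leaving out 1 sample gave 0 or 1. The cause of these shifts was not tested. High-grade, rank of grade and both interactions kept 0 called under every alternative, but single uncalled genes changed sign, 32 of 150 times for high-grade against normal. No paired analysis was possible because the labels give the samples no shared replicate numbers. Depth limits the low genes most, since Sox17 and Car4 had 8 reads in LCM sample 42. Grade, strain, dose and RNA quality are unevenly crossed, mild dysplasia is present in SWR/J only, and animals may be shared between samples. The covariates from gene lists and the removal of samples 70, 72 and 79 were chosen after the data were seen.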

Other observations

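Other vascular genes were also compared between high-grade and normal samples in edgeR's fit, and 0 of 73 genes in 9 lists were called (11 at an unadjusted p under 0.05). Of all genes 0.0192% were called and 9.14% had an unadjusted p under 0.05, so a count of 0 does not set these genes apart. The smallest p of each list, with its log2 fold change, was that of Pdpn among lymphatic genes (1.07, SE 0.30, adjusted p = 0.323), Pgf, the placental growth factor that binds Flt1 (1.19, SE 0.43, adjusted p = 0.440), Gpihbp1, which holds lipoprotein lipase on capillaries (1.07, SE 0.38, adjusted p = 0.440), the platelet and endothelial adhesion gene Selp (1.64, SE 0.62, adjusted p = 0.477), Ece1 (0.67, SE 0.27, adjusted p = 0.496), Cd34 (0.58, SE 0.27, adjusted p = 0.537), Hey1 (0.65, SE 0.40, adjusted p = 0.627), Kitl (0.45, SE 0.28, adjusted p = 0.627) and Bmx (0.53, SE 0.39, adjusted p = 0.681). By rank of grade 1 of 4 platelet genes was called, beside 0.262% of all genes: Ppbp, a platelet chemokine gene (1.49 per step, SE 0.27, adjusted p = 0.0221). For median TIN, Vcam1, an adhesion gene of activated endothelium, was called with a slope of 0.49 per 10 units (SE 0.13, adjusted p = 0.0263) and the Notch ligand Jag1 with -0.41 (SE 0.12, adjusted p = 0.0464). Of all genes 7.31% were called for median TIN.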
